A study of Mus musculus with 12 samples.

Results

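The genes described here encode granule proteins of the neutrophil, its cytosolic calprotectin, a resistin-like secreted protein and a surface receptor. The 10 members were set by name and fall into 2 lists. The early granule list holds Ngp, Ltf, Camp and Lcn2, whose messages are made mainly in marrow precursors. The later and mature-cell list holds Mmp8, Mmp9, S100a8, S100a9, Retnlg and Csf3r. Every probe set that the array platform's annotation assigns to a member alone was read, and the probe set with the highest mean over the arrays represents the gene. Such a probe set was found for 9 of the 10 members, out of 18193 genes with a named probe set, and 8 of them were among the 12309 genes tested. Camp lay under the filter on low values, and Retnlg is named only.

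Lung RNA of male C57BL/6 mice aged 8 to 12 weeks was measured on 12 arrays, 3 animals in each of 4 groups. Wild-type mice and mice labelled nmMLCK-/- (here the knockout), which lack the long, non-muscle isoform of the kinase encoded by Mylk, either breathed spontaneously (SB) or were ventilated for 4 h to cause ventilator-induced lung injury (VILI). The ventilator ran at 65 breaths per min with an end-expiratory pressure of 0 cm H2O and a tidal volume given as 40 ml/kg in the sample labels and as 30 ml/kg in the series text. No group ventilated at a low tidal volume was analysed here, so ventilation itself and its volume cannot be told apart. Values are log2 signals, on which a difference of 1 is a doubling, and levels are compared between arrays for 1 probe set and never between genes.

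Neutrophils mature in the bone marrow and fill their granules in sequence. Messages for azurophil granule proteins come first, those for specific granule proteins such as lactoferrin, cathelicidin and lipocalin follow, and those for gelatinase granules come later. When the cell enters the blood most of the early messages have declined, while those for calprotectin, surface receptors and several secretory products remain abundant. In injured lungs neutrophils gather in capillaries and airspaces, so the neutrophil messages of whole lung RNA depend both on how many cells are present and on how much each cell holds. In these bulk samples fewer cells and less RNA per cell cannot be told apart.

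Transcription factors of the C/EBP family and PU.1 are known regulators of granule genes, and the promoters of 5 members are shown for that reason. The bases just before the RefSeq start of each gene (GRCm38.p6) are printed 5′ to 3′ on the gene's strand, with matches in capitals. The windows are chr9:110419658-110419807 (plus strand) for Ngp, chr9:111019142-111019291 (plus strand) for Ltf and chr9:7558279-7558428 (plus strand) for Mmp8, each of 150 bases. They are chr3:90695722-90695971 (minus strand) for S100a9 and chr3:90668821-90669070 (plus strand) for S100a8, each of 250 bases.
Ngp: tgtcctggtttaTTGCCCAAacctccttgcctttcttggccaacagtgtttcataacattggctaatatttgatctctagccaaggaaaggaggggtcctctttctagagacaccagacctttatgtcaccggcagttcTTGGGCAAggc
Ltf: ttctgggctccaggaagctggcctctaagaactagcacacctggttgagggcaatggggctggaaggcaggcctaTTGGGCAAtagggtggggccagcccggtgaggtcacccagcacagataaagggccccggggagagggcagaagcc
Mmp8: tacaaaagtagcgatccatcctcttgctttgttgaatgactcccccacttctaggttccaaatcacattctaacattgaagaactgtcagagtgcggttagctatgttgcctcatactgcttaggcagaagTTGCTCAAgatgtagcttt
S100a9: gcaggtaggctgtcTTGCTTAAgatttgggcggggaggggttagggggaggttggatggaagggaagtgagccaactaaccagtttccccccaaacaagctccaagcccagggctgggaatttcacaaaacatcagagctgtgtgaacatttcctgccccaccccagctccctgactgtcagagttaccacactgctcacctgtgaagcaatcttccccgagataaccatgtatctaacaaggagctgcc
S100a8: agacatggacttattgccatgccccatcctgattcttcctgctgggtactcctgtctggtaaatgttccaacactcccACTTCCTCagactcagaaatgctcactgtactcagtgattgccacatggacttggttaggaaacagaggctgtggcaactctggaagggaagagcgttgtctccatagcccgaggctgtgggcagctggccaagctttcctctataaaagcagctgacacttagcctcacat
The C/EBP letters searched were TTGCNNAA, on both strands of the 250 bases before the start. They were found in 6 of the 9 member promoters in the table, those of Ngp, Ltf, Lcn2, Mmp8, S100a9 and Retnlg, against 9.56% of all 32851 promoters. The Ngp promoter held 2 matches, at bases 138 to 131 and 11 to 4 before the start. The matches lay 75 to 68 bases before the start in Ltf, 19 to 12 in Mmp8 and 236 to 229 in S100a9. The PU.1 letters GAGGAAGT were found in S100a8 and Mmp8, on the opposite strand in both, against 2.44% of all promoters. They lay at bases 172 to 165 before the start in S100a8. In Mmp8 they lay at bases 221 to 214, outside the 150 bases printed above. The NF-kB motif was found in 0 of the 9 and in 0.98% of all promoters. The C/EBP letters overlap no other motif searched at these places, and early and later members both hold them. A match describes the letters and is not a binding site.

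Across the whole series the arrays correlated at 0.981 to 0.998 over 45037 probe sets. The lung markers Sftpc, a surfactant protein, and Scgb1a1, a club cell secretory protein, were at 15.7 to 15.8 and 16.15 to 16.22 on every array. The 3 probe sets of Mylk were lower in the knockout under SB by 0.22 to 0.97 on the log2 scale (limma adjusted p = 1 for each), and the sources used here do not say whether they lie in the deleted part. The second principal component, with 17.1% of the variance, separated knockout SB replicate 2 and wild-type SB replicate 3 from the remaining 4 SB arrays. Wild-type SB replicate 3 also differed from the other SB arrays in the later members, so the wild-type responses, the differences between responses and the correlations among members are given with and without it. Knockout SB replicate 2 had the lowest Mmp8 signal of all arrays.

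Every tested later member had a positive difference between VILI and SB in both genotypes. The test was passed by 1 of 5 in wild type and 5 of 5 in the knockout, against 6.34% and 8.12% of all genes that rose. Of the 3 tested early members, 0 passed in wild type and 1 in the knockout. Over both genotypes together, 6 of the 8 tested members rose with VILI, against 14.1% of all genes. They were all 5 tested later members and Lcn2. The median log2 difference was 2.55 for the later members, 0.49 for the 3 tested early members and -0.05 for all genes. Of the 8 members, Mmp8 and Lcn2 were higher on all 6 VILI arrays than on all 6 SB arrays, against 7.45% of all genes.

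**Figure D1:**
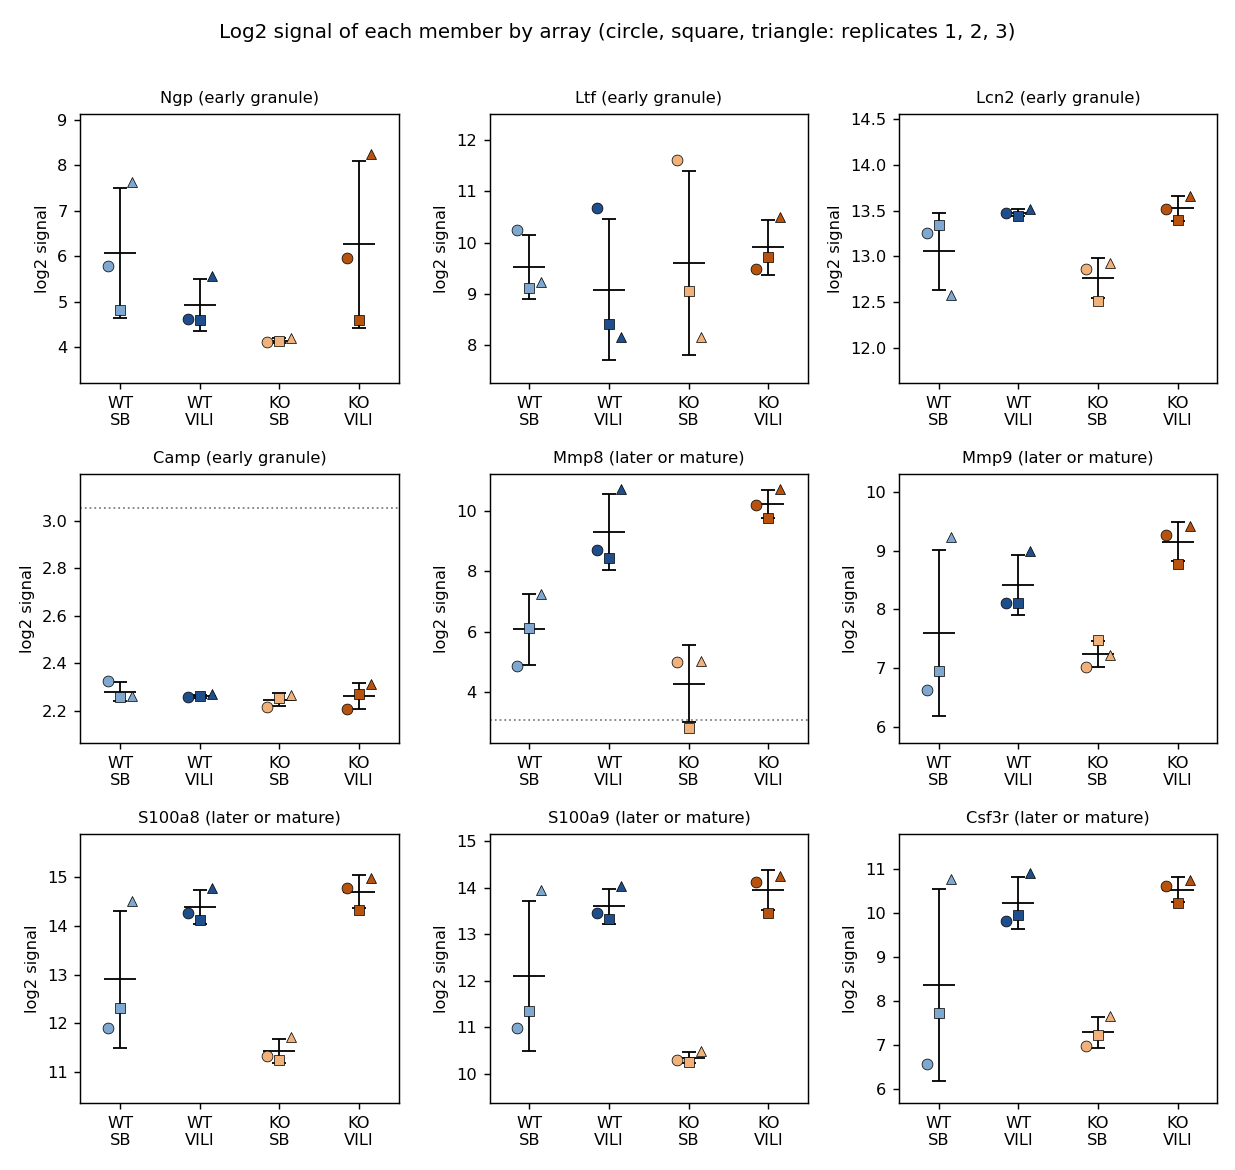
Log2 signal (y axis) of the leading probe set of 9 members on 12 arrays in 4 groups (x axis; WT wild type, KO knockout), with group means and SD as bars and, for Camp and Mmp8, the filter level of 3.06 as a dotted line. In S100a8, S100a9, Mmp9 and Csf3r the third wild-type SB array lies among or above the VILI arrays, and Camp lies under the filter level on all arrays. The y axes differ between panels.

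Mmp8, the neutrophil collagenase stored in granules, had the largest response of the members. Its log2 signal was 4.86, 6.13 and 7.23 on the wild-type SB arrays and 8.69, 8.45 and 10.74 on the wild-type VILI arrays. In the knockout it was 4.98, 2.79 and 5.03 under SB and 10.21, 9.78 and 10.71 under VILI. Every VILI array lay above every SB array, and the SB value of 2.79 was under the filter level of 3.06. Mmp8 rose by 3.22 ± 0.79 (SE, n = 3 per group) in wild type, a 9.32-fold change with limma's adjusted p = 0.0229, and it was the only member to pass there, against 6.34% of all genes that rose. That difference was 3.80 (adjusted p = 0.0156) without wild-type SB replicate 3. In the knockout it rose by 5.97 ± 0.79, or 62.7-fold (adjusted p = 0.00151), and by 5.23, or 37.6-fold (0.00529), without knockout SB replicate 2, the array under the filter level. The wild-type call did not hold without wild-type SB replicate 1 (adjusted p = 0.0845), without wild-type VILI replicate 3 (0.0771) or in a fit of the wild-type groups alone (0.0727).

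S100a8 and S100a9 encode the 2 subunits of calprotectin, the calcium- and metal-binding protein of neutrophil cytosol. The log2 signal of S100a8 was 11.91, 12.31 and 14.52 on the wild-type SB arrays and 14.27, 14.13 and 14.79 after VILI. In the knockout it was 11.34, 11.26 and 11.72 under SB and 14.79, 14.33 and 14.997 after VILI. The third wild-type SB array thus lay within the VILI range, and the wild-type groups overlapped, while the knockout groups were far apart. S100a8 rose by 3.27 ± 0.54 in the knockout, or 9.62-fold (limma adjusted p = 0.00396), and its wild-type difference of 1.49 ± 0.54 did not pass (adjusted p = 0.0922). Without wild-type SB replicate 3 the wild-type difference was 2.29 (adjusted p = 0.000953).

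S100a9 showed the same arrangement. Its signal was 10.99, 11.36 and 13.96 under SB and 13.46, 13.33 and 14.04 after VILI in wild type. In the knockout it was 10.30, 10.27 and 10.49 under SB and 14.13, 13.47 and 14.27 after VILI. The third wild-type SB array was again within the wild-type VILI range, and the knockout groups did not overlap. The knockout response was 3.60 ± 0.62, or 12.1-fold (limma adjusted p = 0.00462), and the wild-type response was 1.51 ± 0.62 (adjusted p = 0.127). Without wild-type SB replicate 3 the latter was 2.43 (adjusted p = 0.000887).

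Csf3r, the receptor for granulocyte colony-stimulating factor on the neutrophil surface, had signals of 6.57, 7.72 and 10.78 under SB and 9.81, 9.96 and 10.90 after VILI in wild type. Its knockout signals were 6.97, 7.22 and 7.66 under SB and 10.61, 10.22 and 10.75 after VILI. Only the third wild-type SB array reached the range of the VILI arrays. The knockout difference was 3.25 ± 0.83, or 9.48-fold (limma adjusted p = 0.0221), and the wild-type difference was 1.86 ± 0.83 (adjusted p = 0.153), or 3.07 (0.00159) without that array. The ligand gene Csf3 lay at 2.35 to 2.41 on all 12 arrays, under the filter level.

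Mmp9, gelatinase B of the later granules, was represented by 2 probe sets. The leading probe set was at 6.62, 6.95 and 9.23 under SB and 8.12, 8.12 and 9.001 after VILI in wild type, and in the knockout at 7.03, 7.47 and 7.23 under SB and 9.26, 8.78 and 9.41 after VILI. The third wild-type SB array was above all 3 wild-type VILI arrays. Mmp9 rose by 1.91 ± 0.56 in the knockout, or 3.75-fold (limma adjusted p = 0.0378), and its wild-type difference was 0.81 ± 0.56 (adjusted p = 0.363), or 1.63 (0.00656) without that array. The second probe set was at 3.51, 4.28 and 8.07 and then 6.58, 6.84 and 7.55 in wild type, and at 3.97, 3.98 and 4.22 and then 8.34, 7.07 and 8.24 in the knockout. It had differences of 1.70 (adjusted p = 0.274) and 3.83 ± 0.94 (adjusted p = 0.0233), so both probe sets passed in the knockout. The knockout call of the leading probe set was lost with no filter on low values (adjusted p = 0.0734) and kept in 4 of 12 fits with a single array removed. In the fit without wild-type SB replicate 3 the knockout difference was 1.91 ± 0.26 (limma adjusted p = 0.00156).

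Among the early granule members, Lcn2, the siderophore-binding lipocalin, is also made by injured epithelium. Its signal was 13.26, 13.34 and 12.57 under SB and 13.48, 13.44 and 13.52 after VILI in wild type, and in the knockout 12.86, 12.51 and 12.92 under SB and 13.52, 13.39 and 13.66 after VILI. The groups did not overlap in either genotype, with the third wild-type SB array now the lowest of the wild-type arrays. Lcn2 rose by 0.76 ± 0.19 in the knockout, or 1.69-fold (limma adjusted p = 0.0201), and its wild-type difference was 0.42 ± 0.19 (adjusted p = 0.157). The latter was 0.18 (adjusted p = 0.408) without wild-type SB replicate 3. Among the 4 tested genes of the acute phase list, the cytokine gene Il6 rose in wild type by 6.89 (adjusted p = 0.0116), against 6.34% of all genes. In the knockout 0 passed, against 8.12% of all genes that rose, with 1 at an unadjusted p under 0.05. The knockout signal of Il6 was 2.07, 2.09 and 2.10 under SB and 8.965, 8.32 and 2.25 after VILI, so it was high on all but the third ventilated array.

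Ngp, neutrophilic granule protein of the cathelicidin family, had signals of 5.79, 4.81 and 7.62 under SB and 4.62, 4.59 and 5.57 after VILI in wild type. In the knockout it was 4.11, 4.12 and 4.20 under SB and 5.95, 4.61 and 8.24 after VILI. The highest values were in wild-type SB replicate 3 and knockout VILI replicate 3, and in the knockout the VILI arrays all lay above the SB arrays. The differences were -1.15 ± 0.86 in wild type (limma adjusted p = 0.401) and 2.12 ± 0.86 in the knockout (adjusted p = 0.103), and neither passed. Without wild-type SB replicate 3 the wild-type difference was -0.37 (adjusted p = 0.813), and with 1 array left out at a time it ran from -1.78 to -0.37. The knockout difference was 1.13 (adjusted p = 0.307) without knockout VILI replicate 3. The red cell markers Alas2, an enzyme of heme synthesis, and Slc4a1, the band 3 anion exchanger, were at 8.74 and 7.85 in knockout VILI replicate 3, where the Slc4a1 value was the highest of all 12 arrays. The 2 tested markers summed to 16.6 there, against 8.96 and 13.3 on the other knockout VILI arrays. In wild-type SB they summed to 9.32 in replicate 3, where Ngp was 7.62, and to 14.99 in replicate 1, where it was 5.79. The lowest sum in that group was 9.15, and the sums were 8.38 to 10.4 in wild-type VILI and 10.5 to 13.4 in knockout SB. The part of red cells in the Ngp values was not tested.

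Ltf, the iron-binding lactoferrin of specific granules and of glandular secretions, did not follow the other members. Its signal was 10.24, 9.11 and 9.24 under SB and 10.68, 8.42 and 8.17 after VILI in wild type, and in the knockout 11.62, 9.06 and 8.16 under SB and 9.49, 9.73 and 10.51 after VILI. The groups overlapped in both genotypes, and both the highest and the lowest of the 12 values were on knockout SB arrays. The differences were -0.44 ± 0.86 and 0.30 ± 0.86 (limma adjusted p = 0.763 and 0.835), and the former was -0.59 (0.75) without wild-type SB replicate 3. Camp, the cathelicidin antimicrobial peptide of specific granules, lay at 2.21 to 2.33 on all 12 arrays, under the filter level, so no change in it could be measured.

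Counted by list, 1 of 8 members rose in wild type (1 of 5 later and 0 of 3 early), against 6.34% of all genes. There 5 of 8 members had an unadjusted p under 0.05, against 3825 of 12309 genes. In the knockout 6 of 8 rose (5 of 5 later and 1 of 3 early), against 8.12% of all genes. The VILI arrays were all above the SB arrays for 2 of 8 members in wild type (Mmp8 and Lcn2), against 15.5% of all genes, and for 7 of 8 in the knockout, against 17.9%. Without wild-type SB replicate 3, 5 members rose in wild type, against 6.52% of all genes, and they were all 5 tested later members. The median difference of the later members was 1.51 in wild type and 3.27 in the knockout, and that of the early members was -0.44 and 0.76.

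**Figure D2:**
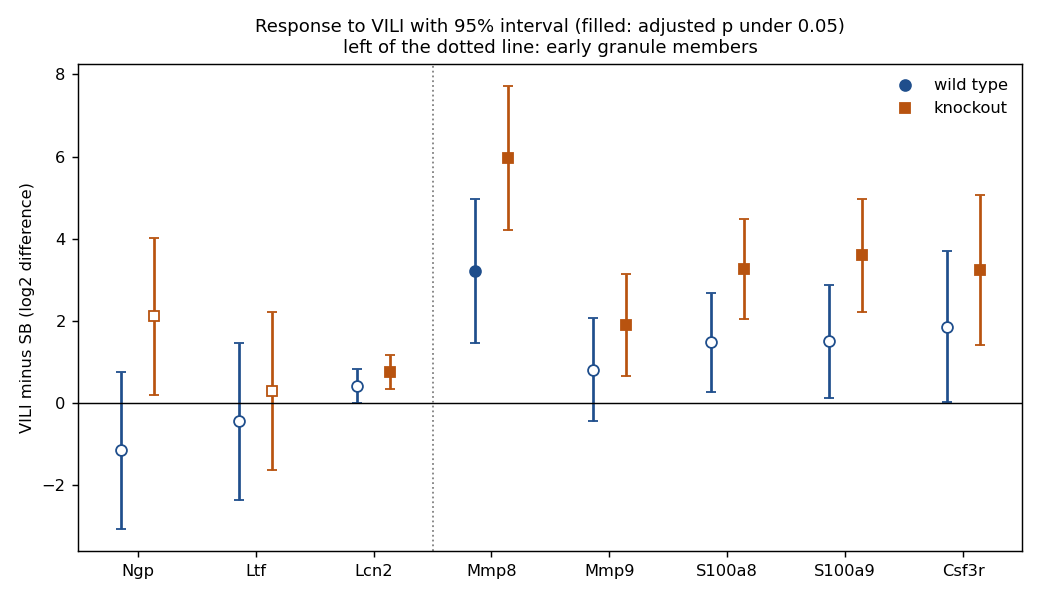
Log2 difference of VILI minus SB (y axis) for the 8 tested members (x axis) in wild type and knockout, with limma's 95% interval as bars and filled symbols for an adjusted p under 0.05. All 8 knockout differences lie above the wild-type ones, from 0.34 to 3.27 apart, and the intervals overlap for every member.

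The design also asks whether the response depended on genotype. The knockout response exceeded the wild-type response for all 8 tested members, by 0.34 (Lcn2) to 3.27 (Ngp), with 2.75 for Mmp8, 2.09 for S100a9 and 1.78 for S100a8. The test of the difference itself passed for 0 of 8 (limma adjusted p 0.971 to 0.989) and for 0% of all genes. An unadjusted p under 0.05 was reached by 4 members and by 619 of 12309 genes. Without wild-type SB replicate 3 the excess was smaller for 6 members, at 2.49 for Ngp, 2.17 for Mmp8, 1.16 for S100a9, 0.98 for S100a8, 0.28 for Mmp9 and 0.17 for Csf3r. It was larger for the other two, at 0.88 for Ltf (from 0.74) and 0.58 for Lcn2 (from 0.34). Of the 8 members 0 passed without that array (adjusted p 0.399 to 0.919), against 0.0487% of all genes.

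Under SB the later members were lower in the knockout than in wild type, with log2 differences of -1.81 to -0.35, and 0 of 8 members passed (limma adjusted p = 1 for each), against 0.0487% of all genes. An unadjusted p under 0.05 was reached by 4 members and by 460 of 12309 genes. The knockout arrays were all below the wild-type arrays for S100a8, S100a9 and Ngp, against 2.31% of all genes that were lower in this way. The differences were -1.47 ± 0.54 for S100a8, -1.75 ± 0.62 for S100a9 and -1.93 ± 0.86 for Ngp. Without wild-type SB replicate 3 they were -0.67, -0.82 and -1.16, and those of Mmp9 and Csf3r turned to 0.46 and 0.14. Platelet markers differed between the same groups. All 5 tested of 6 were lower in the knockout under SB, with summed log2 signals of 32.5 to 33.9 against 37.4 to 38.6, and Gp1bb, a platelet adhesion receptor subunit, fell by 1.77 (adjusted p = 0.019). The part of platelets in the members' differences was not tested.

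Under VILI all 8 members were higher in the knockout by 0.05 to 1.34. The groups overlapped for each, where 11.1% of all genes were higher on every knockout array. None of the 8 passed with limma (adjusted p 0.694 to 0.976), against 0.106% of all genes, and 0 of 8 had an unadjusted p under 0.05, against 1070 of 12309 genes. The widest of these differences were 1.34 for Ngp and 0.94 for Mmp8.

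Of the 13 tested mature neutrophil genes outside the members, 5 rose in wild type and 10 in the knockout, against 6.34% and 8.12% of all genes, with medians of 2.09 and 2.39. Il1r2, a decoy receptor for interleukin-1, rose by 4.95 ± 0.83 in wild type (limma adjusted p = 0.00472) and by 5.90 ± 0.83 in the knockout (0.00197). Trem1, a receptor that amplifies neutrophil activation, rose by 2.24 (0.017) and 2.85 (0.00545). In wild-type SB replicate 3, 6 of these 13 genes lay within the range of the wild-type VILI arrays and 7 lay below it. Slfn4, a myeloid gene of the Schlafen family, was within it at 10.38, whereas Il1r2 was at 4.20 against 8.91 to 10.46 after VILI. Without that array 10 of the 13 rose in wild type, against 6.52% of all genes, and 13 of 13 in the knockout, against 10.7%.

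Other granule genes differed in whether they were measured at all. Of the azurophil granule genes, 5 of 6 had a named probe set (Mpo, Elane, Prtn3, Ctsg and Ms4a3), and all lay at 1.924 to 2.503 on all 12 arrays, under the filter level. Of 10 other specific granule genes, 6 were tested, among them Chil3, a chitinase-like protein that macrophages also make, at 13.9 to 14.4, and Hp, haptoglobin, at 13.9 to 14.2 on all arrays. In wild type 0 passed with limma and 1 had an unadjusted p under 0.05, with Padi4, which citrullinates histones, nearest to passing (1.05, adjusted p = 0.0546). In the knockout 2 of the 6 rose, against 8.12% of all genes: Cd177, a neutrophil surface glycoprotein, by 1.23 (0.00264) and Padi4 by 1.95 (0.00412). In wild type 1 of the 6 rose without wild-type SB replicate 3, against 6.52% of all genes. Of 5 tested genes of the chemoattractant list, Cxcl2, Cxcl5 and Cxcl1 rose in wild type by 4.47, 2.41 and 1.85 (adjusted p = 0.00252, 0.0108 and 0.0499), against 6.34% of all genes. Without wild-type SB replicate 3, 2 of the 5 rose, against 6.52% of all genes. In the knockout Cxcl2 and Cxcl1 rose by 2.17 and 1.79 (0.0426 and 0.0473), against 8.12% of all genes. When knockout SB replicate 2 and wild-type SB replicate 3 were both left out, 0 of the 5 passed with limma (3 at an unadjusted p under 0.05), against 8.16% of all genes that rose.

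**Figure D3:**
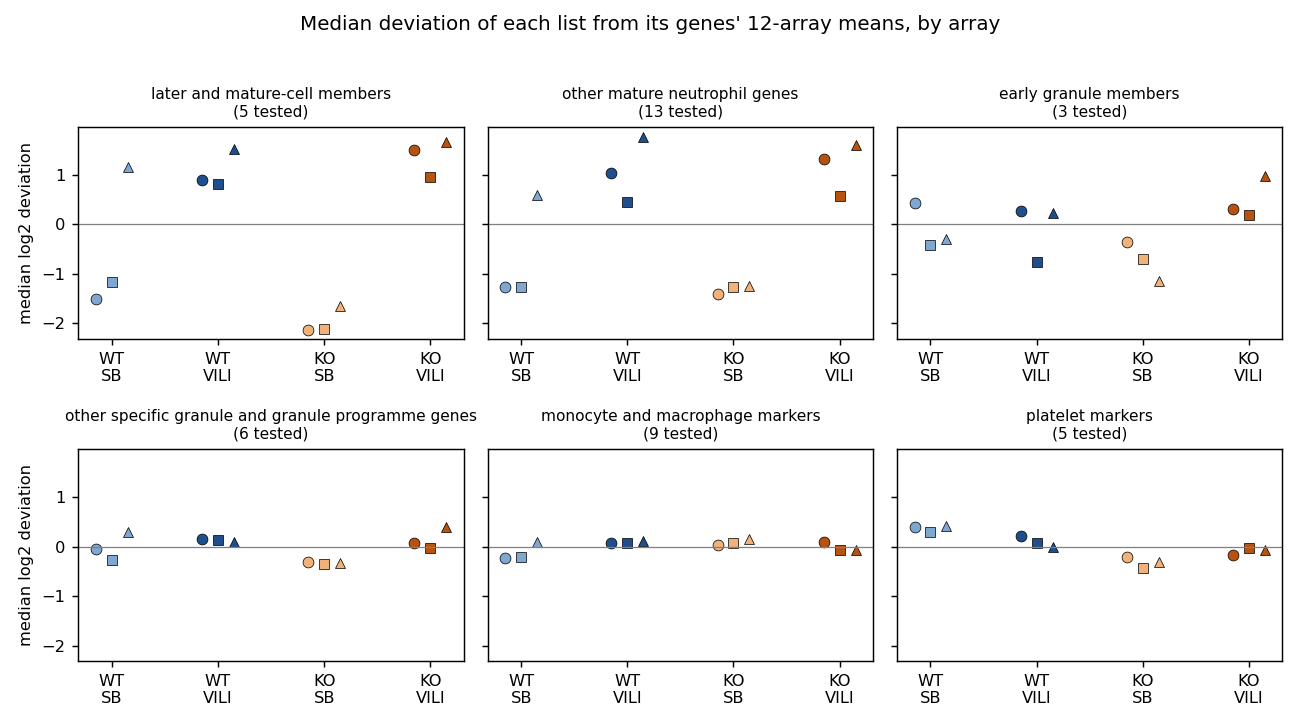
Median log2 deviation of a list's tested genes from their means over 12 arrays (y axis), by group (x axis), for the members and 4 other lists, with 1 symbol per array (circle, square and triangle for replicates 1, 2 and 3). The later members and the other mature neutrophil genes are high on the 6 VILI arrays and in wild-type SB replicate 3, and monocyte and macrophage markers lie between -0.23 and 0.15 on all arrays.

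Markers of other cells were read beside these. Of all 12309 genes, 6.34% rose and 9.03% fell in wild type, and 8.12% rose and 12.6% fell in the knockout. An unadjusted p under 0.05 was reached by 3825 genes in wild type and by 4538 in the knockout. Of 9 tested monocyte and macrophage markers, Marco, a scavenger receptor of macrophages, rose in wild type by 2.31 (limma adjusted p = 0.0186), and 0 passed in the knockout, with 1 at an unadjusted p under 0.05. Their summed log2 signal was 87.6 to 93.5 in wild-type SB, 92.6 to 93.9 in wild-type VILI, 92.7 to 93.0 in knockout SB and 91.5 to 93.4 in knockout VILI. Of the 4 tested calprotectin receptor genes, Cd14 rose in wild type by 0.82 (0.00435), and 0 passed in the knockout, also without adjustment. Of 6 airway and alveolar epithelial markers, 0 passed in wild type (1 without adjustment) and 1, the junction protein gene Cdh1, rose by 0.35 in the knockout. The 2 tested red cell markers had median differences of -0.99 in wild type and 0.61 in the knockout, with array deviations from -1.44 to 2.67, and neither passed. In the knockout response Gp1bb and Cd3e, a T cell receptor component, rose by 1.06 and 0.62, and Tek, an endothelial receptor kinase, fell by 0.75. The part of other cell types in the members' values was not tested.

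Within groups the later members moved together from array to array. Over 12 arrays the deviations of S100a8 and S100a9 from their group means correlated at r = 0.994, or 0.963 over 11 arrays without wild-type SB replicate 3. The 6 pairs among S100a8, S100a9, Mmp9 and Csf3r had r of 0.964 to 0.994 (0.791 to 0.963 without it), and Mmp8 brought the lowest of the 10 later pairs to 0.598 (0.487 without it). With the later members, Ngp had r of 0.498 to 0.721 (0.286 to 0.671 without it), and Ltf had r of -0.342 to -0.134 (-0.608 to -0.098). For Lcn2 the range was -0.73 to -0.006, and 0.145 to 0.797 without that array. These are descriptions over arrays that share an RNA sample for all genes.

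The genes whose within-group deviations were most like the mean of the members were the C-type lectin genes Clec4d (r = 0.981) and Clec4e (0.961), followed by Pygl (0.957), Pik3r5 (0.937), Msrb1 (0.933) and Sema4a (0.932). Over the 11 arrays without wild-type SB replicate 3 these within-group values were 0.945, 0.884, 0.890, 0.817, 0.799 and 0.783. Over the 12 array values themselves they were Clec4d (0.977), Slc2a3 (0.975), Slfn1 (0.973), Stfa2l1 (0.967), Slfn4 (0.959) and Cxcr2 (0.959). Without that array the within-group r of these ran from 0.669 for Slfn4 to 0.945 for Clec4d. Clec4d and Clec4e rose in both genotypes, by 2.51 and 3.41 in wild type and 4.77 and 4.34 in the knockout.

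The genes most like Ltf were looked up after its values were seen, and they were of another kind. They were Ckm, the muscle creatine kinase (r = 0.988 of within-group deviations), Atp2a2, a calcium pump (0.968), Aoc3, an amine oxidase (0.955), Mapk10 (0.953) and Myom2, a muscle sarcomere protein (0.952). The signal of Ckm was 6.15, 5.72 and 5.67 in wild-type SB, 6.09, 4.84 and 4.46 in wild-type VILI, 6.87, 5.57 and 4.82 in knockout SB and 4.75, 4.82 and 5.37 in knockout VILI. In each group the array with the highest Ltf signal also had the highest Ckm signal. Ckm was picked for its correlation over these same values, so this adds no separate support.

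**Figure D4:**
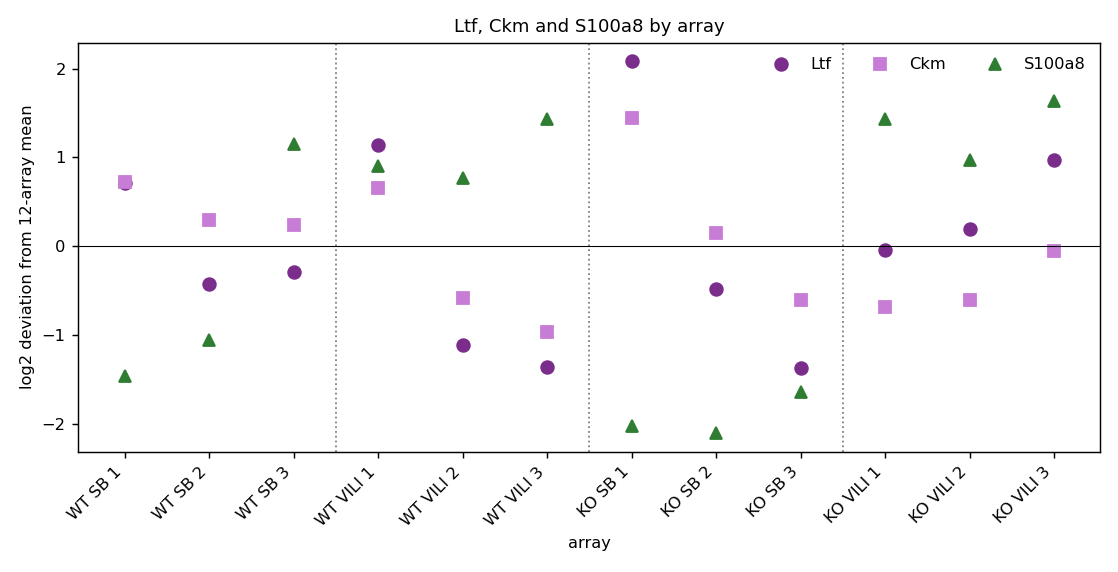
Log2 deviation from each gene's mean over 12 arrays (y axis) for Ltf, Ckm and S100a8 on each array (x axis). Ckm was picked for its correlation with Ltf on these arrays. Ltf and Ckm are both highest in knockout SB replicate 1, where S100a8 is among its lowest values, and S100a8 is high in all VILI arrays and in wild-type SB replicate 3.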

How the data were processed

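Per the labels, total RNA of 12 mouse lungs was extracted with Trizol, and 6 ug was labelled with biotin for arrays of 1 colour. The deposited table gives a log2 signal for each probe set. The authors made them with MAS5 and GCRMA, per the submitters' processing notes, and the sources used here give neither the part nor the version of each. That the scale is log2 was read from the values, which ran from 0.75 to 16.3 and had medians per array of 4.94 to 5.04. Such summaries compress differences between dim probe sets and level the arrays, which hides a shift in the total RNA of a cell. A genome build is not given in the sources consulted, so no position of a probe set is printed.

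Of 45037 probe sets, 34945 had 1 gene symbol, 932 several and 9160 none, by the platform annotation, in which 0 symbols needed an update. Probe sets with a mean over all arrays under the 40th percentile (3.06) were left out, which kept 22443 with 1 symbol. The highest-mean probe set per gene gave 12309 genes. The test was limma 3.58.1 under R 4.3.3 (lmFit and eBayes, a mean for each of 4 groups, all 12 arrays in the fit), with p-values adjusted by Benjamini-Hochberg over all genes of a comparison and a threshold of 0.05. Mmp9 and Mylk probe sets were also tested over the 22443. The log2 differences are given with the standard error of the fit, and a fold is 2 to the power of the difference. The fit pools the spread of all 4 groups, so an array of 1 genotype also enters the standard errors of the other. The fit was tested on simulated data, drawn as independent normal values with the same spread in all 4 groups. That setting does not cover unequal spreads such as those of S100a9, with an SD of 0.12 in knockout SB and 1.62 in wild-type SB. It also holds no array that stands apart. The number of arrays limits the precision, and the median standard error of a difference was 0.148. The labels name no batch and do not say how animals were handled between arrays. The p-values therefore measure the spread between these arrays, in which animals and any differences of handling or batch cannot be told apart.

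Members were named by the rule stated above. For the other lists, counts and medians cover all tested members, with up to 4 named by the smallest p, and the 6 genes most like the members were taken by correlation. Slfn4, the markers named beside single arrays and the genes most like Ltf alone were chosen after their values were seen. The members and lists were chosen with earlier results of these data known. Promoters are RefSeq's for GRCm38.p6, matched by symbol for 9 members. The alternatives were array scaling to equal medians, quantile normalization, no filter and a stricter one (60th percentile), the mean of a gene's probe sets, an intensity trend with robust eBayes, the compared groups alone, a replicate block, and leaving out arrays.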

Additional observations from a re-analysis of the deposited data

How the results depend on the processing

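With 3 arrays per group, calls of single members rest on few arrays. Of 986 values of members under alternatives, 938 kept direction and side of the threshold, 22 lost a call, 9 gained one and 17 turned sign. The count that rose in wild type was 1 and became 0 with the wild-type groups fitted alone and 5 with knockout SB replicate 2 and wild-type SB replicate 3 both left out. Leaving out 1 array at a time gave 0 to 5, with 0 reached when the first SB or the third VILI array of wild type was omitted and 5 when the third SB array was. Calls over all 12309 genes, in either direction, went from 1892 to 845 with the wild-type groups fitted alone. They went to 933 and 1090 in the other fits with 0 members, and to 1697 and 2204 in those with 5. In the knockout the member count was 6, and 3 to 6 with 1 array left out. It was 3 without knockout SB replicate 2, knockout VILI replicate 1 or knockout VILI replicate 3. Over all genes 2554 were called, and 1308, 1553 and 1647 in those fits. Over both genotypes the member count was 6, and 5 to 6, against 4520 genes called, and 3734 and 4031 in the fits with 5. The other 3 comparisons had 0 members called in every such fit. The cause was not tested beyond the arrays named.

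Array scaling to equal medians and quantile normalization gave the same counts. S100a8, S100a9 and Mmp8 kept the knockout call in all 12 fits without 1 array. Lcn2 kept it in 9, Csf3r in 7 and Mmp9 in 4, with adjusted p up to 0.0745, 0.064 and 0.102. Without wild-type SB replicate 3, which enters these tests through the pooled spread, limma's adjusted p was 0.00258, 0.000582 and 0.00156. The knockout difference of Ngp was 2.95 when the second VILI array was omitted.

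Signs turned in the following results. For knockout minus wild type under SB, Mmp9 was 0.35 and Csf3r 0.17 with both SB arrays left out, and with 1 array left out Mmp9 ran from -0.84 to 0.46, Csf3r from -1.97 to 0.14 and Ltf from -0.92 to 0.81. Under VILI this difference ran from -0.0238 to 0.11 for Lcn2. The wild-type response of Ltf ran from -1.24 to 0.0169 and its knockout response from -0.43 to 1.30. Over both genotypes Ltf ran from -0.47 to 0.43 and Ngp from -0.0075 to 0.90.

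The within-group deviations of same-numbered arrays of different groups correlated above 0.1 in 3 of 18 pairs (-0.628 to 0.398). With 3 arrays per group these values cannot settle whether the numbers pair the samples, and the labels state no pairing. A fit with the replicate block gave counts of 1 in wild type, 7 in the knockout, where Ngp passed (limma adjusted p = 0.0427), and 6 over both genotypes, with 0 in the other 3 comparisons. Over all genes it called 1433 in wild type, 1884 in the knockout and 3936 over both genotypes, in either direction.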

Other observations

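The genes most like Lcn2 by within-group deviations over 12 arrays were looked up after its values were seen. They were Mfap2, a microfibril protein (r = 0.99), Cd163, the haptoglobin-hemoglobin receptor of macrophages (0.987), Slc34a2, the phosphate transporter of alveolar type II cells (0.98), and Dapk1 (0.98). Lcn2 and all of these genes were lowest of their group in wild-type SB replicate 3 and in knockout SB replicate 2. Cd163 was at 7.63 and 8.71 there, against 9.64 and 9.75 in wild-type SB and 10.13 and 10.06 in knockout SB. Their r without those arrays was not computed. The genes most like Ngp, also over all 12 arrays only, were Slc27a4 (0.93) and Thap3 (0.926).

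Alas2 was at 9.70 in wild-type SB replicate 1 and at 9.24 and 8.74 in replicates 2 and 3 of the ventilated knockout group, against 4.66 to 8.59 on the other 9 arrays.

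Of the 5 tested lymphocyte markers and the 4 tested endothelial markers, 0 passed in wild type with limma, with 1 of each list at an unadjusted p under 0.05, and Cd3e and Tek passed in the knockout. Of all genes, 15.4% passed in wild type and 20.7% in the knockout, and 3825 of 12309 had an unadjusted p under 0.05 in wild type.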
